A study of Mus musculus with 60 samples.

Results

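Endothelial genes and Vegfa were followed in a count table of bulk RNA from mouse triceps muscle, subcutaneous white adipose tissue (scWAT) and visceral white adipose tissue (vWAT). The set held 8 of the 54352 genes in the table, chosen by symbol: Pecam1, Cdh5, Kdr, Flt1, Tek, Egfl7 and Esam, which mark the endothelium, and Vegfa, the growth factor that acts on it. All 8 were found, each as 1 row. The mice were C57BL/6JN, a laboratory strain, and 12 weeks old. Chow supplied 10% of its energy as fat and the high-fat diet (HFD) 60%, and each was fed for 6 weeks. On either diet, mice stayed sedentary or had a running wheel in the last 3 weeks (trained), which gave 4 groups of 5 mice per tissue. All groups shared a fast of 6 hours and 24 hours with the wheels locked before tissue was taken, so the trained mice were sampled after a day without running. The same 20 animals gave all 3 tissues, 60 libraries in all. The distance that each mouse ran is not given in the sources used here.

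Endothelial cells line every blood vessel, and in skeletal muscle most of them sit in the capillaries that run along the muscle fibres. Muscle fibres and other cells secrete VEGF-A, the product of Vegfa, which binds the receptor VEGFR2 (Kdr) on endothelial cells and drives them to divide and sprout. VEGFR1 (Flt1) binds the same ligand more tightly but signals less and can act as a trap, and TIE2 (Tek), the receptor of the angiopoietins, keeps vessels quiescent. Endurance exercise is known to raise Vegfa briefly after a bout and to raise the number of capillaries per fibre over weeks. Adipose tissue is also densely vascularised, and its vessels grow and regress as fat cells change in size.

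Flt1 and Kdr lie on 1 chromosome on the same strand, Flt1 at chr5:147561604-147726011 and Kdr at chr5:75932827-75978458, both on the minus strand of mm10. Vegfa lies at chr17:46016993-46032369, also on the minus strand. Cdh5 lies at chr8:104101625-104144511, Egfl7 at chr2:26580014-26593120, Esam at chr9:37528078-37538319 and Tek at chr4:94739289-94874976, all on the plus strand, and Pecam1 at chr11:106654217-106750628 on the minus strand. All 8 are protein-coding genes in the GENCODE annotation. Cdh5 is overlapped on the other strand by Gm29682, which had no count in any library. Egfl7 is overlapped by 4 genes, among them Agpat2 on the other strand, which had 76 to 586 counts per scWAT library and 98 to 478 per vWAT library, but at most 7 in triceps; the strand setting of the counting is not stated, so reads of these neighbours may not be fully separated in fat.

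RefSeq promoters on GRCm38.p6, from 250 bases before to 50 after a start, were found for 5 of the 8 genes: Egfl7, Tek, Kdr, Flt1 and Vegfa. Those of both VEGF receptors and of their ligand are shown because the results turn on the ligand and its receptors. Capitals mark GGAAG on either strand (read as CTTCC on the other), 1 form of the site that ETS factors bind. ETS factors are the main transcription factor family of endothelial genes, and other forms of their site were not searched. The regions are chr5:147725962-147726261, chr5:75978406-75978705 and, for the more upstream of 2 Vegfa starts, chr17:46032328-46032627, all read 5′ to 3′ on the minus strand.
Flt1: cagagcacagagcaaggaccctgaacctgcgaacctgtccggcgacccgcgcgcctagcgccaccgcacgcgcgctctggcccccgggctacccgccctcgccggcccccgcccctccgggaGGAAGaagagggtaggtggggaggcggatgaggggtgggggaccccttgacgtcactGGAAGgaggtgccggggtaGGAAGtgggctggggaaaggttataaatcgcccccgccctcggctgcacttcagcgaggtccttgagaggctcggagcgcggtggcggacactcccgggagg
Kdr: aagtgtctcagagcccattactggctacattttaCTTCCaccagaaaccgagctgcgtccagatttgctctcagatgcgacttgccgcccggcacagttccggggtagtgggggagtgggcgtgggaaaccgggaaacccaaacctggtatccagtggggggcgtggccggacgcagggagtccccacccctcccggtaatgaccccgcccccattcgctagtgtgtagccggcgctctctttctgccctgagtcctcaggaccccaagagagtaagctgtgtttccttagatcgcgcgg
Vegfa: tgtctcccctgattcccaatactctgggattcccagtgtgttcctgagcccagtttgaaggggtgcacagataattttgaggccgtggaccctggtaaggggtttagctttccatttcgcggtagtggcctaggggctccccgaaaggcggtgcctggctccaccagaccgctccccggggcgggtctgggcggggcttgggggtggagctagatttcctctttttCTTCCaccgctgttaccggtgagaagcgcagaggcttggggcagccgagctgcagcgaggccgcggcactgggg
The Flt1 promoter held GGAAG 3 times, and the Kdr and Vegfa promoters 1 time each. It was found in 71.4% of the 32851 promoters of the same length, so its presence does not set these genes apart. Both core variants of sites for hypoxia-inducible factors were searched on both strands. ACGTG was in 19.6% of promoters and in none of the 3 windows shown, while GCGTG was in 32.4% of promoters, 2 times in the Kdr window and 1 time in the Flt1 window. The window of the other Vegfa start held each of them 1 time.

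Counts per library were low for all 8 genes. Total counts ran from 651030 to 744581 per library in triceps, 505336 to 720220 in scWAT and 580173 to 689060 in vWAT. The summed 7 endothelial genes gave 79 to 151 counts per library in triceps, 189 to 480 in scWAT and 243 to 434 in vWAT. The library codes of each tissue are 20 consecutive numbers, and no label gives the pools. They were cut here into runs of at most 12, the number of wells that the protocol pools, with the boundaries placed where reads of organs that were not sampled changed. Some runs thus carried such reads: 5 chow vWAT libraries held 204 to 282 heart reads, 5 chow triceps libraries held 104 to 137 intestinal reads, 3 HFD vWAT libraries held 139 to 211 intestinal reads, and 3 HFD triceps libraries held 116 to 156 brain reads. Liver reads reached 4243 in a vWAT library, and in scWAT they were 441 to 701 in the run of 9 libraries and 23 to 185 in the run of 11. In scWAT, 6 of the 10 chow libraries held 403 to 1108 reads summed over Ccl21a, Ccl19 and Cxcl13, chemokines of lymph node stroma, and the other 14 held at most 19. Reads of the 15 skeletal muscle genes ran from 119 to 68661 per scWAT library, and the highest value in each group was 19037 in sedentary chow, 68661 in trained chow, 44023 in sedentary HFD and 1344 in trained HFD mice. Their part in the scWAT results was not tested. For called members of scWAT and triceps and for some other genes, values without the lymph node libraries or within 1 run are also given.

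In triceps, running raised Cdh5 and Flt1. Over both diets together, 2 of the 7 members tested were called, that is, had an adjusted p below 0.05 in edgeR's quasi-likelihood test, both higher in trained mice; of all 4410 genes tested, 8.75% were called and 5.65% were called higher. All 6 tested endothelial genes had a positive estimate, with a median log2 fold change of 0.53 against −0.02 over all genes tested. Vegfa did not follow them. In bulk RNA, a change in the number of endothelial cells and a change in the RNA per cell cannot be told apart.

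Cdh5 encodes VE-cadherin, the cadherin of endothelial junctions, and is made by almost no other cell type. In triceps of sedentary chow mice its counts were 14, 9, 15, 5 and 7. In trained chow mice they were 11, 14, 13, 12 and 23. The groups overlapped on chow, and the highest count belonged to a single trained mouse. On HFD, sedentary mice had 12, 11, 8, 6 and 13 counts and trained mice 20, 14, 12, 15 and 22, with the groups overlapping narrowly in CPM, the counts scaled to a common library total. Mean CPM was 14.2 ± 6.05 in sedentary and 20.1 ± 6.73 in trained chow mice (SD, n = 5 each), and 14.3 ± 4.50 and 23.0 ± 5.38 on HFD. The log2 fold change over both diets was 0.74 (SE 0.20, edgeR adjusted p = 0.0142). Within the single run of 12 libraries that holds all 4 groups it was 1.21 (SE 0.28, edgeR adjusted p = 0.00480). The runs differed, however: on chow, the estimate within the run of 5 chow libraries was far smaller than within the run of 12, as given below.

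Flt1, the VEGF decoy receptor, gave 8, 11, 12, 12 and 13 counts in sedentary chow mice and 27, 14, 17, 17 and 22 in trained chow mice. Every trained chow library lay above every sedentary one, and the share of all genes with such a separation was not counted. On HFD the counts were 19, 13, 11, 13 and 17 in sedentary and 20, 25, 15, 19 and 12 in trained mice, and the groups overlapped. Mean CPM was 16.01 ± 2.78 in sedentary and 26.7 ± 7.02 in trained chow mice, and 20.9 ± 5.48 and 25.4 ± 6.86 on HFD (SD, n = 5 each). The log2 fold change over both diets was 0.66 (SE 0.18, edgeR adjusted p = 0.0116). Within the run of 12 libraries it was 0.69 (SE 0.23), and the call was lost (edgeR adjusted p = 0.0566).

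The other endothelial genes were not called in triceps. Egfl7, a secreted protein of endothelial cells that helps shape the vessel wall, came nearest, with a log2 fold change of 0.57 (SE 0.20, edgeR adjusted p = 0.0671). It was called with the library run as a factor, at 0.64 (adjusted p = 0.0418), and within the run of 12, at 0.95 (adjusted p = 0.0249). Its counts were 6 to 14 in sedentary chow, 10 to 21 in trained chow, 7 to 14 in sedentary HFD and 8 to 18 in trained HFD mice, so the groups overlapped on both diets. Kdr, the main signalling receptor of VEGF-A, had 3 to 14, 5 to 18, 4 to 10 and 3 to 15 counts in the same order and a log2 fold change of 0.49 (SE 0.27, adjusted p = 0.297). Esam, an adhesion molecule of endothelial junctions, had 11 to 18, 11 to 27, 8 to 24 and 12 to 24 counts and 0.42 (SE 0.20, adjusted p = 0.219). Pecam1, or CD31, the adhesion molecule most used to stain capillaries, had 26 to 42, 31 to 51, 27 to 46 and 34 to 41 counts. Its log2 fold change was 0.28 (SE 0.13, adjusted p = 0.21). Group means of Pecam1 on total counts were 46.8 ± 9.72 and 58.4 ± 11.6 CPM on chow but 54.5 ± 10.98 and 52.0 ± 5.58 on HFD (SD, n = 5 each), where the trained mean was not above the sedentary one. In the fit, which used TMM scaling instead, all 6 tested endothelial genes had positive estimates for running on HFD, the lowest at 0.11.

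Tek was too low in triceps to pass the filter on low counts, with 0 to 9 counts per library. The single library without a count allows up to 3 counts, the limit a count of 0 sets. Mean CPM was 7.11 ± 2.86 in sedentary and 6.62 ± 3.16 in trained chow mice, and 8.18 ± 5.19 and 7.77 ± 2.17 on HFD (SD, n = 5 each). Exact two-sided permutation tests gave p = 0.778 for running on chow and p = 0.873 for running on HFD, where the smallest p the design allows is 0.00794. For HFD the exact permutation tests gave p = 0.706 in sedentary and p = 0.5 in trained mice. A change in Tek was not detectable at this depth.

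Vegfa itself showed no rise in trained triceps. Sedentary chow mice had 24, 23, 22, 32 and 29 counts, and trained chow mice 24, 24, 16, 24 and 33. Sedentary HFD mice had 25, 17, 24, 39 and 26, and trained HFD mice 28, 30, 21, 23 and 23. The 4 groups overlapped throughout, with means of 37.4 ± 7.70, 33.3 ± 8.23, 37.2 ± 10.7 and 34.8 ± 5.16 CPM (SD, n = 5 each). The log2 fold change over both diets was 0.02 (SE 0.15, edgeR adjusted p = 0.96). Within 1 diet it was −0.04 on chow and 0.09 on HFD, each with an SE of 0.21, so both lay within 1 SE of 0. Mean CPM on total counts was lower in trained mice on both diets. TMM scaling, used for the fold changes, moved the median of all genes by 0.12 on chow and 0.18 on HFD.

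**Figure D1:**
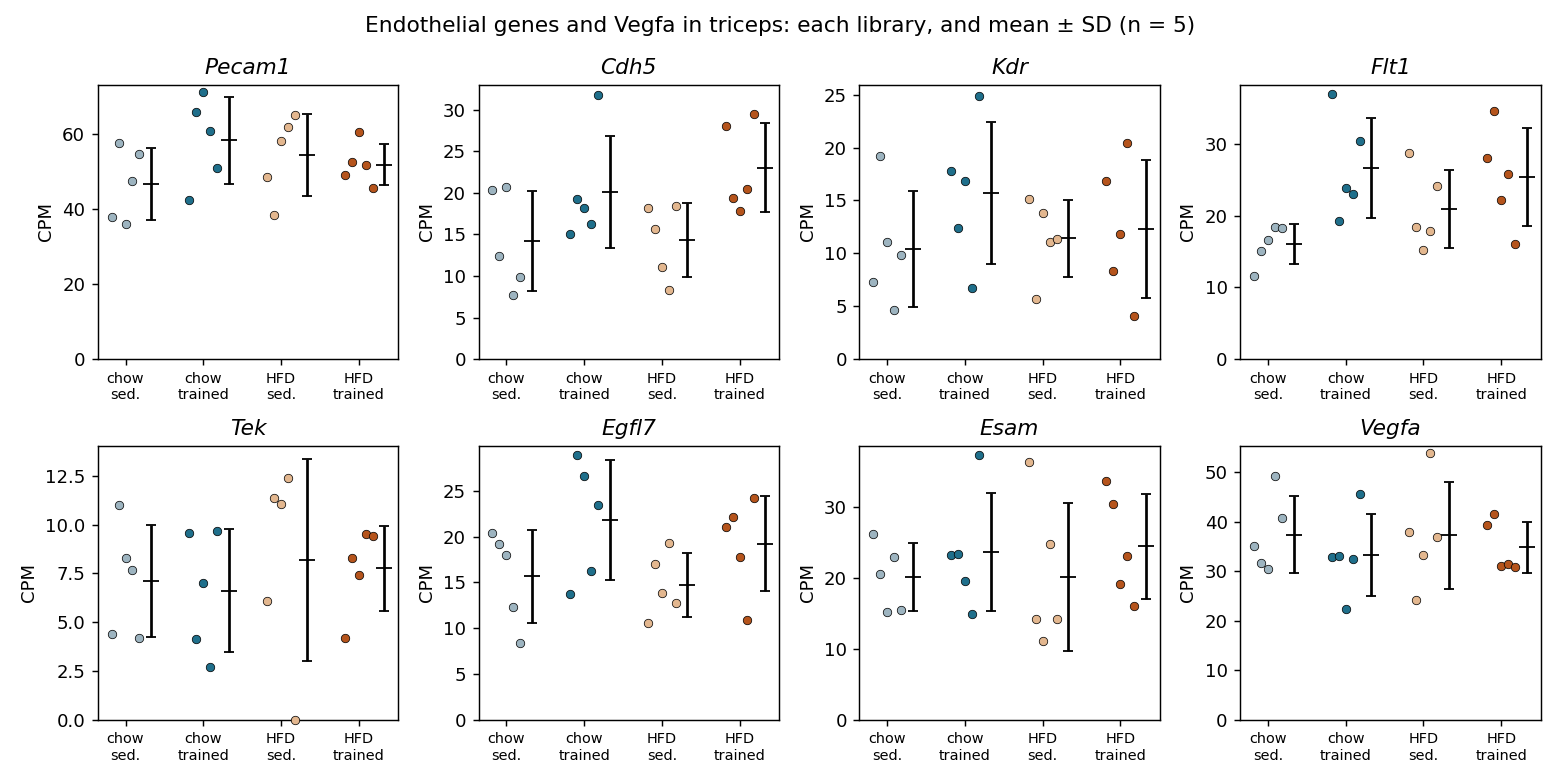
Each panel plots 1 gene in triceps as CPM on total counts, with 1 point per library, 5 libraries per group, and the mean ± SD beside them. In Flt1 all 5 trained chow libraries lie above all 5 sedentary chow libraries, while the 4 groups of Vegfa overlap. How many of all genes separate like Flt1 was not counted.

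Taken within 1 diet, no member passed the test in triceps. Running on chow gave 0 calls among the 7 tested members by edgeR, DESeq2 and limma voom, where 0.726% of all genes were called by edgeR. At an unadjusted p below 0.05 in edgeR there were 4 of the 7 members and 477 of all 4410 genes. The largest estimate was that of Flt1, 0.86 (SE 0.26, edgeR adjusted p = 0.0891). Running on HFD also gave 0 calls by the 3 tools, where 5.58% of all genes were called, and 1 of the 7 members had an unadjusted p below 0.05, as did 842 of all genes. There the largest estimate was that of Cdh5, 0.87 (SE 0.28, edgeR adjusted p = 0.0629). For Cdh5, the chow estimate was 0.04 (SE 0.39) within the run of 5 chow libraries and 1.45 (SE 0.45) within the run of 12; for Flt1 it was 1.04 (SE 0.37) and 0.64 (SE 0.36). The diet by running interaction was called for 0 members by edgeR, DESeq2 and voom, and for 0.0% of all genes; 0 members and 225 of all genes had an unadjusted p below 0.05. No member was called for diet in triceps: HFD gave 0 calls in sedentary and in trained mice by the same 3 tools, with 0.0% of all genes called in each. At an unadjusted p below 0.05 there were 0 members in either, against 201 of all genes in sedentary and 306 in trained mice.

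Some other genes listed for capillaries were also higher in trained triceps. The list was chosen with earlier results of these data known, so it is not independent support. Of 18 genes listed for capillaries of muscle and fat, 11 were tested. Over both diets 5 were called, all higher in trained mice, where 5.65% of all genes tested were called higher. The median log2 fold change of the 11 was 0.47. Sparcl1, a matricellular protein, rose most clearly, from 101 ± 25.5 to 154 ± 17.0 CPM on chow and from 108 ± 11.1 to 188 ± 22.4 on HFD (SD, n = 5 each), a log2 fold change of 0.85 (SE 0.10, edgeR adjusted p = 4.01e-07). Sparcl1 was also the 1 gene of this list called on chow alone, at 0.73 (SE 0.14, adjusted p = 0.00589). Lpl, the lipoprotein lipase that muscle fibres deliver to the capillary wall, rose by 0.86 (SE 0.22, adjusted p = 0.0188). Gpihbp1, the endothelial protein that carries the lipase to the vessel lumen, rose by 0.58 (SE 0.16, adjusted p = 0.0128). On total counts, without TMM scaling, 3 of the 11 were called, Sparcl1, Lpl and Gpihbp1, where 15.8% of all genes were called. Within the run of 12 libraries 5 of 12 were called, with 8.63% of all genes.

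Of 29 further pan-endothelial genes, 7 were abundant enough to test in triceps and 2 were called, both higher. For this and the triceps lists that follow, 8.75% of all genes tested were called and 5.65% were called higher. Cav1, the coat protein of caveolae, rose by 0.51 (SE 0.11, edgeR adjusted p = 0.00101), and Adgrf5, an adhesion receptor of endothelial cells, by 0.76 (SE 0.16, adjusted p = 0.00111). The median of the 7 was 0.44. Of 5 tested endothelial transcription factors, 0 were called by edgeR. Among pericyte genes, 2 of 3 tested were called higher: Rgs5, a regulator of G protein signalling, by 0.50 (SE 0.09, adjusted p = 0.000196), and Kcnj8, a potassium channel subunit, by 0.85 (SE 0.27, adjusted p = 0.0370). The call of Kcnj8 was lost on total counts (adjusted p = 0.0711). Of 4 tested vascular smooth muscle genes 0 were called, and the median was −0.11.

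Genes around Vegfa moved in different directions. Of 8 tested genes of hypoxia and Vegfa regulation, 1 was called, Pdk1, a kinase that restrains pyruvate dehydrogenase, at 0.61 (SE 0.20, edgeR adjusted p = 0.0495). This call was lost on total counts (adjusted p = 0.121), within the run of 12 libraries (0.224) and with the library run as a factor (0.0676). Among other angiogenic factors and inhibitors, 3 of 4 tested were called. Timp3, a metalloproteinase inhibitor that also binds VEGFR2, rose by 0.54 (SE 0.13, adjusted p = 0.0042), and Igf1, a growth factor, by 0.66 (SE 0.21, adjusted p = 0.0346). On total counts neither was called, with edgeR adjusted p of 0.0514 and 0.0826. Within the run of 12 both calls were lost as well (0.0697 and 0.111), while both stood with the library run as a factor (0.00436 and 0.0456). Angptl4, an inhibitor of lipoprotein lipase that also acts on vessels, was lower in trained mice, at 9.63 ± 4.02 against 23.0 ± 5.54 CPM on chow and 3.63 ± 0.823 against 19.3 ± 3.62 CPM on HFD (SD, n = 5 each). Its log2 fold change was −1.65 (SE 0.24, edgeR adjusted p = 7.56e-06). The trained HFD mean lay below the level of 3 counts in triceps libraries, 4.03 to 4.61 CPM, so the size of the fall there rests on few counts.

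**Figure D2:**
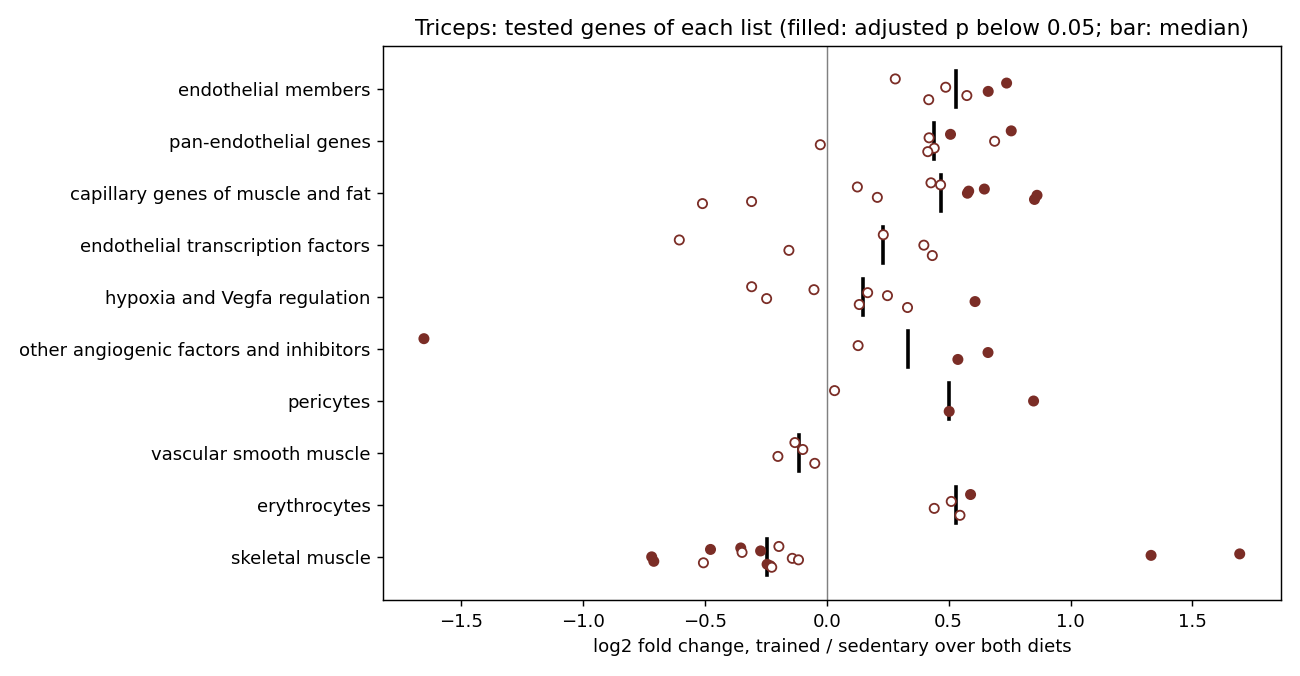
Each point is 1 tested gene of a list in triceps, placed by its log2 fold change for trained against sedentary mice over both diets; filled points passed the test and the bar is the list's median. The 6 tested endothelial genes lie between 0.28 and 0.74, and 5 of the 11 genes of the capillary list are filled. Among the filled is Lpl, which muscle fibres deliver to the capillary wall.

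Markers of other cells moved with running in triceps as well. Of 15 skeletal muscle genes, none at 0, 7 were called lower and 2 higher, with a median of −0.24; Pvalb, a calcium buffer of fast fibres, fell by 0.71 (SE 0.10, edgeR adjusted p = 5.09e-06) and Myh1, a fast myosin, rose by 1.69 (SE 0.24, adjusted p = 0.000196). Together these 15 genes took 13.7% to 19.7% of counts in sedentary and 9.20% to 16.2% in trained libraries. Of 6 erythrocyte genes, Slc4a1 was at 0 in all triceps libraries and 4 were tested; 1 was called, Hba-a1, a haemoglobin gene, at 0.59 (SE 0.16, adjusted p = 0.0166). Their summed share was 0.113% to 0.206% of counts in sedentary and 0.122% to 0.298% in trained libraries. The part of these shifts in the endothelial results was not tested. From total counts to TMM scaling the median of all genes moved by 0.15 for running over both diets, and on total counts Cdh5 was at 0.59 (adjusted p = 0.0476) and Flt1 at 0.51 (adjusted p = 0.0467).

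Across the 20 triceps libraries, the standardised mean of the 6 tested endothelial genes ran most closely with Klhl41, a muscle fibre protein (Pearson r 0.87, Spearman rho 0.86), and next with Got1, Uqcrq, Cox4i1 and mt-Rnr2 (r 0.83 to 0.80). Got1 is an aminotransferase, Uqcrq and Cox4i1 are subunits of respiratory chain complexes, and mt-Rnr2 is a mitochondrial ribosomal RNA. The 5 were the highest of 3735 genes with a mean log2 CPM of at least 4, and the libraries share the groups and their depth. Pairs among the 6 endothelial genes had r from 0.05 to 0.58 with a median of 0.36 over 15 pairs, and within groups the median was 0.16. Vegfa had r 0.20 with the endothelial mean. The genes nearest to Vegfa were Dusp22, a phosphatase (r 0.70, rho 0.73), and then Ddo, Cdnf, Perm1 and Taz (r 0.68 to 0.62); without the 2 libraries farthest from the median of Vegfa, those of Cdnf, Perm1 and Taz dropped to 0.40, 0.32 and 0.36.

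In scWAT, running moved no member past the test. Running gave 0 calls among the 8 members on chow, on HFD and over both diets by edgeR, DESeq2 and voom, with 0.0%, 1.0% and 0.905% of all 7069 genes called. At an unadjusted p below 0.05 in edgeR there were 0, 2 and 1 members, against 377, 785 and 707 of all genes. The 7 endothelial genes had a median log2 fold change of −0.27 over both diets, with 3 positive and 4 negative. Vegfa had its largest running estimate of any tissue here, on HFD, where sedentary mice had 15, 39, 25, 25 and 36 counts and trained mice 41, 23, 39, 70 and 64. The groups overlapped, and the log2 fold change was 0.82 (SE 0.30, edgeR adjusted p = 0.266). Pecam1 went the other way on HFD, with 101, 73, 102, 62 and 117 counts in sedentary and 49, 65, 41, 62 and 67 in trained mice, a log2 fold change of −0.63 (SE 0.20, adjusted p = 0.187). The groups overlapped narrowly. The diet by running interaction had 0 calls among the 8 members by edgeR, DESeq2 and voom, with 1 member at an unadjusted p below 0.05, Pecam1 at −0.65 (SE 0.29, adjusted p = 0.731), against 438 of all genes, and 0.0% of all genes called. Among the other vascular genes of scWAT on HFD, Nos3, the endothelial nitric oxide synthase, rose by 1.20 with running (SE 0.27, adjusted p = 0.0246). Rgs5 fell by 0.85 (SE 0.21, adjusted p = 0.0442), Fgf1, a growth factor, fell by 1.60 (SE 0.34, adjusted p = 0.0158), and Thbs1, the angiogenesis inhibitor thrombospondin-1, fell by 2.27 (SE 0.30, adjusted p = 0.000365).

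**Figure D3:**
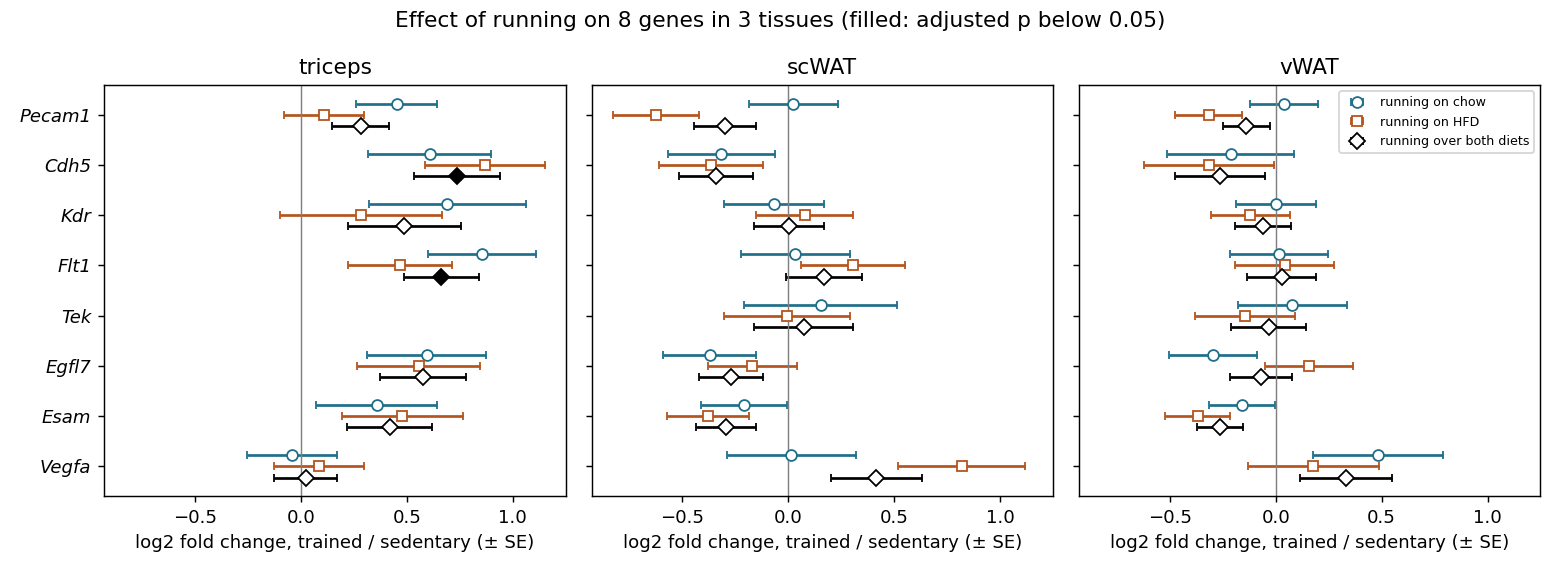
Log2 fold changes of the 8 genes for trained against sedentary mice, with their SE, on chow (circles), on HFD (squares) and over both diets (diamonds) in each tissue; filled symbols passed the test and Tek was not tested in triceps. Cdh5 and Flt1 over both diets in triceps are the filled symbols, at 0.74 and 0.66.

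Of the members, Esam alone was called for diet in scWAT, and the call did not stand in 7 of the 10 fits that left out 1 library. It was higher on HFD in sedentary mice, the 1 call among 8 members where 6.35% of all genes were called and 3.55% were called higher. Sedentary chow mice had 65, 40, 78, 39 and 52 counts and sedentary HFD mice 147, 108, 96, 59 and 121, and 1 HFD library lay within the chow range. Mean CPM was 86.9 ± 19.0 and 161 ± 45.2 (SD, n = 5 each), and the log2 fold change was 0.68 (SE 0.20, edgeR adjusted p = 0.0368). In trained mice the counts were 49, 33, 52, 39 and 43 on chow and 88, 89, 67, 60 and 87 on HFD, and every HFD library lay above every chow one. How many of all genes separate in this way was not counted. The log2 fold change of Esam in trained mice was 0.51 (SE 0.20, edgeR adjusted p = 0.131). There 0 members were called by edgeR, DESeq2 and voom, where 5.16% of all genes were called by edgeR. In edgeR, 1 member and 1500 of all genes had an unadjusted p below 0.05. On total counts the log2 fold change of Esam in trained mice was 0.79 (adjusted p = 0.0107). Tek was next, with 11, 8, 16, 5 and 9 counts in sedentary chow and 32, 33, 13, 7 and 23 in sedentary HFD mice, and 0.84 (SE 0.33, adjusted p = 0.133). Its 2 lowest HFD libraries lay within the chow range. Vegfa had −0.53 (SE 0.31, adjusted p = 0.335) in sedentary and 0.27 (SE 0.30, adjusted p = 0.672) in trained mice.

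Markers of other cells moved in the same contrast. For sedentary chow against sedentary HFD libraries, reads of the fibroblast list summed to 1732 to 3571 against 2798 to 6399, those of macrophages to 248 to 726 against 356 to 955, those of pericytes to 151 to 329 against 265 to 759 and those of vascular smooth muscle to 65 to 189 against 201 to 503. Called higher were 1 of 8 tested fibroblast genes (Dpt at 0.98), 1 of 9 macrophage genes (Adgre1 at 2.02), 1 of 6 pericyte genes (Rgs5 at 1.01) and 1 of 5 smooth muscle genes (Acta2 at 1.64). Of all genes tested, 6.35% were called and 3.55% were called higher. Without the lymph node libraries the calls of Rgs5 (0.85, edgeR adjusted p = 0.151) and Acta2 (0.97, edgeR adjusted p = 0.0958) were lost. Of 10 adipocyte genes 2 were higher, among them Lep, which encodes leptin, at 2.81, and 2 lower, among them Fasn, the fatty acid synthase, at −3.22. No gene of these 5 lists was at 0 in all scWAT libraries, and their part in the Esam result was not tested.

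The call of Esam was also lost without the lymph node libraries. All 6 libraries with such reads were chow libraries, and of 7 tested B cell genes 4 were called lower on HFD and of 3 tested lymph node stroma genes 2 were, with no gene of either list at 0 in all scWAT libraries. B cell reads summed to 2 to 434 per chow library and 2 to 16 per HFD library. Esam was at 69.4 ± 12.3 CPM in these 6 libraries (SD, n = 6), at 90.9 ± 15.9 in the other 4 chow libraries (SD, n = 4) and at 140 ± 38.5 in the 10 HFD libraries (SD, n = 10). Sedentary chow replicates 2, 4 and 5 were among the 6, which left replicates 1 and 3 as the only sedentary chow libraries. A test with fewer libraries has less power, and the part of this in the lost call was not tested. Without the 6, the log2 fold change in sedentary mice was 0.34 (SE 0.23, edgeR adjusted p = 0.598). Within the run of 11 scWAT libraries it was 0.83 (adjusted p = 0.0852), and within the run of 9 it was 0.70 (adjusted p = 0.492).

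**Figure D4:**
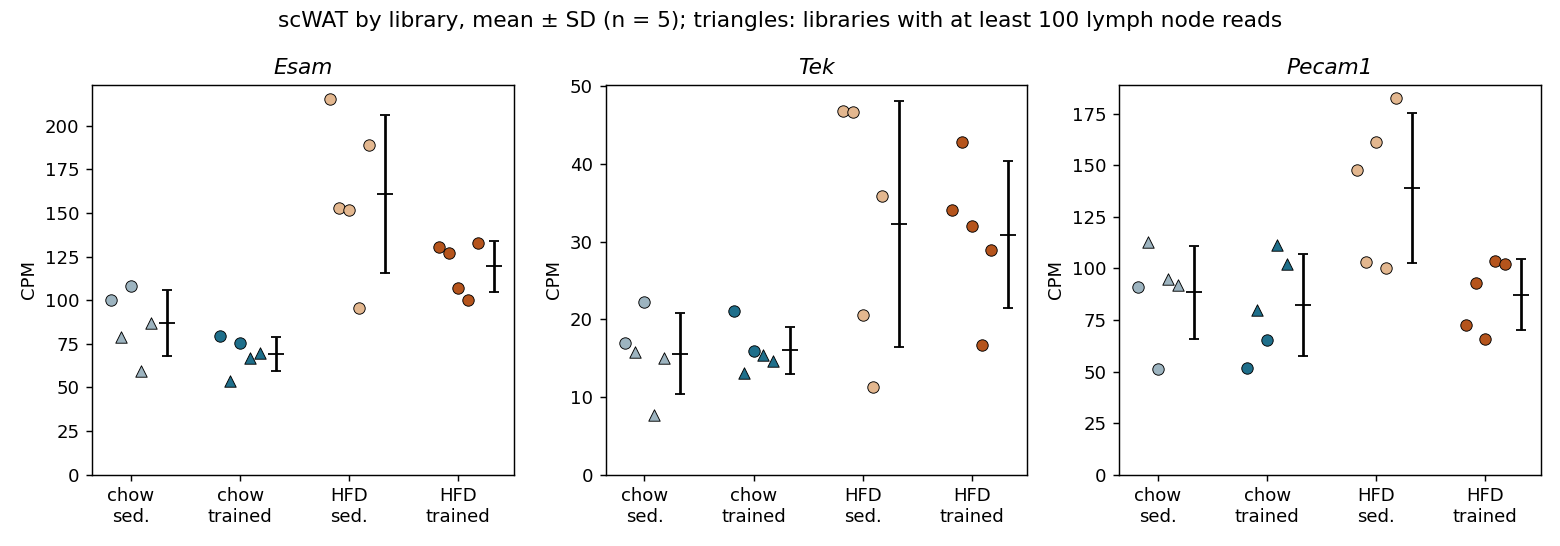
CPM of Esam, Tek and Pecam1 in scWAT, 1 point per library, with mean ± SD of 5; triangles are the 6 libraries with at least 100 lymph node reads, all of them from chow mice. The lowest chow values of Esam are triangles, and 1 sedentary HFD library sits at 95.4 CPM among the chow libraries.

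Calls of other vascular genes in scWAT also moved with these libraries. Among the 26 tested pan-endothelial genes, 6 were higher on HFD in sedentary mice with a median of 0.42, led by Cd34, a sialomucin of endothelial and progenitor cells, at 1.49 (SE 0.28, edgeR adjusted p = 0.00167), Palmd at 1.10 (SE 0.21, adjusted p = 0.00167) and Cav1 at 1.03 (SE 0.23, adjusted p = 0.00599). Of 14 capillary genes 3 were higher: Aplnr, the apelin receptor, at 1.45 (SE 0.36, adjusted p = 0.0164), Timp4 at 0.72 (SE 0.20, adjusted p = 0.0286) and Sparcl1 at 0.74 (SE 0.21, adjusted p = 0.0352). In this contrast 3.55% of all genes tested were called higher, and the median of all genes was −0.05. Without the 6 libraries, only replicates 1 and 3 of sedentary chow were left, and the test had less power. There 0 of 27 and 0 of 14 were called by edgeR, where 1.78% of all genes were. The median of the pan-endothelial genes was then 0.37 and that of the capillary genes 0.03. Thbs1, at 2.67 (SE 0.32, adjusted p = 9.46e-06), and Pdk1, which fell by 2.11 (SE 0.26, adjusted p = 1.26e-05), were called without them too, at 2.45 (adjusted p = 0.00286) and −2.01 (adjusted p = 0.00167).

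In vWAT, no member was called in any comparison by edgeR, DESeq2 or voom. Running had 0.587% of all 6990 genes called on chow, 3.09% on HFD and 3.58% over both diets, with 0, 1 and 1 members at an unadjusted p below 0.05 in edgeR, against 580, 1030 and 1070 of all genes. HFD had 8.05% called in sedentary and 2.62% in trained mice, with 1 and 0 such members against 1391 and 962 of all genes, and the interaction 0.0143% with 0 against 487. Over both diets the endothelial genes had running estimates from −0.26 to 0.03, with a median of −0.07. Among the members, the lowest adjusted p for running was that of Esam over both diets, with a log2 fold change of −0.26 (SE 0.11, edgeR adjusted p = 0.212). Its counts were 72, 87, 127, 85 and 84 in sedentary chow, 66, 81, 61, 103 and 82 in trained chow, 111, 112, 140, 104 and 102 in sedentary HFD and 94, 72, 88, 88 and 73 in trained HFD mice. On HFD every trained library lay below every sedentary one, and the log2 fold change was −0.37 (SE 0.15, edgeR adjusted p = 0.219). The share of all genes that separate so was not counted. Vegfa ranged from 17 to 59 counts in sedentary chow and from 37 to 89 in trained chow mice, with 0.48 (SE 0.31, adjusted p = 0.779), and from 23 to 59 and 35 to 58 on HFD, with 0.18 (SE 0.31, adjusted p = 0.859). Of 26 tested pan-endothelial genes 1 was called for running over both diets, Cldn5, the main claudin of endothelial tight junctions, which fell by 0.88 (SE 0.21, adjusted p = 0.0189). Thbs1 fell by 1.93 (SE 0.17, adjusted p = 2.59e-09) and Angptl4 by 0.89 (SE 0.09, adjusted p = 3.59e-08), while Cspg4, the pericyte marker NG2, rose by 1.08 (SE 0.26, adjusted p = 0.0146).

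The running effect on Cdh5 differed between muscle and fat in a fit of all 60 libraries with the animal as a block. The difference in log2 fold change was 1.04 between triceps and scWAT (SE 0.26, edgeR adjusted p = 0.0404), where 0.541% of all 8501 genes were called, and 0.98 between triceps and vWAT (SE 0.26, adjusted p = 0.0494), where 0.859% were. Both calls were lost on total counts (adjusted p of 0.0591 and 0.0909) and without the animal block (0.112 and 0.115), and they stood in 4 and 3 of the 20 fits that left out 1 animal. For Flt1 the differences were 0.47 (SE 0.25, adjusted p = 0.542) and 0.61 (SE 0.25, adjusted p = 0.299). For Vegfa they were −0.44 (SE 0.26, adjusted p = 0.612) and −0.35 (SE 0.26, adjusted p = 0.688). Between both fat depots, 0 members differed by edgeR in their running effect, with 0 members and 295 of all genes at an unadjusted p below 0.05.

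The level of the members also differed by tissue. On total counts the median CPM of each of the 8 genes was lower in triceps than in either fat depot. On that scale the median log2 fold change of all genes was −1.28 against scWAT and −1.35 against vWAT. The share of all genes that separate triceps from fat without overlap was not counted. Kdr had medians of 11.6 CPM in triceps, 80.4 in scWAT and 67.5 in vWAT, and its triceps libraries, at most 24.9 CPM, lay below all fat libraries, at least 35.2. Esam had 21.8, 100.3 and 135 CPM, also with no triceps library reaching those of fat, and Cdh5 had 18.2, 68.1 and 63.8. Pecam1 had 52.2, 97.5 and 123 CPM, Flt1 20.7, 43.2 and 47.0, Egfl7 17.9, 48.0 and 49.8 and Tek 7.99, 18.8 and 28.5. No triceps library reached those of fat in Cdh5 and Egfl7, while triceps and scWAT overlapped in Pecam1, Flt1 and Tek. The margins were narrow on this scale. Cdh5 reached 31.8 CPM in triceps and was at least 32.6 in vWAT, and Egfl7 reached 28.9 in triceps and was at least 32.0 in scWAT. Vegfa had 33.1, 55.7 and 63.6 CPM, with wide overlap.

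These tissue differences depend on the scaling, because TMM moved the median of all genes by 0.99 between triceps and scWAT and by 1.08 between triceps and vWAT relative to total counts. On the TMM scale the median of all genes was −0.29 and −0.27. Against scWAT, 6 of 8 members were called, with 79.7% of all genes called: Kdr at −1.66 (SE 0.14), Esam at −1.23 (SE 0.12), Cdh5 at −1.06 (SE 0.13), Tek at −0.58 (SE 0.19) and Egfl7 at −0.45 (SE 0.13) were lower in triceps, and Vegfa was higher at 0.43 (SE 0.13), which flipped to −0.57 on total counts. Against vWAT, 5 of 8 were called, with 80.0% of all genes: Esam at −1.60 (SE 0.11), Kdr at −1.42 (SE 0.14), Cdh5 at −0.83 (SE 0.13), Tek at −0.81 (SE 0.19) and Egfl7 at −0.48 (SE 0.12). Pecam1 and Flt1 were not called in either comparison on the TMM scale, and were called lower in triceps on total counts in both. Between the fat depots, with 26.8% of all genes called, Esam was lower in scWAT at −0.37 (SE 0.10, edgeR adjusted p = 0.00281) and Pecam1 at −0.22 (SE 0.09, adjusted p = 0.0482). The call of Pecam1 was lost without the animal block (adjusted p = 0.0761) and in 14 of the 20 fits that left out 1 animal, while that of Esam stood in all of these. The difference between the depots was not fitted without the lymph node libraries.

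**Figure D5:**
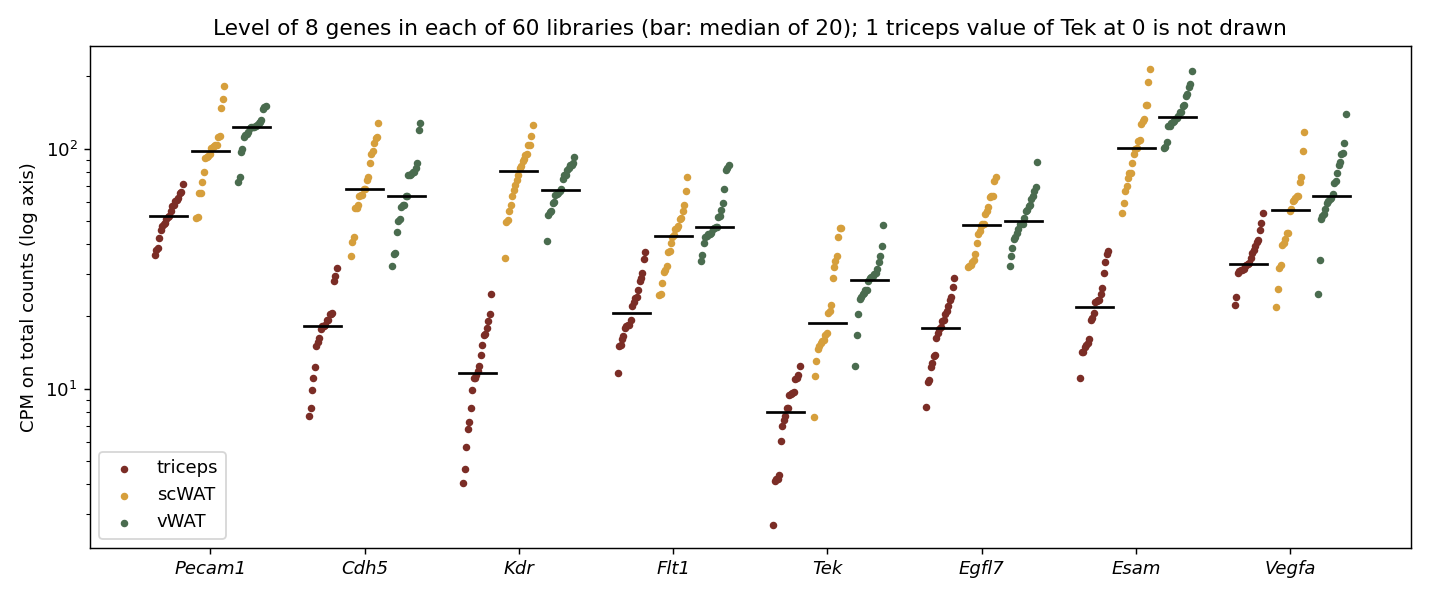
CPM on total counts (log axis) of the 8 genes in every library, coloured by tissue, with the median of 20 as a bar; 1 triceps library had no Tek count and is not drawn. On this scale Kdr, Esam, Cdh5 and Egfl7 separate triceps from fat without overlap, Cdh5 and Egfl7 narrowly, and Vegfa does not. The share of all genes that separate in this way was not counted.

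The genes nearest to the mean of the endothelial genes were also listed in each fat depot; their r was not compared between tissues. Over the 20 scWAT libraries the nearest were Fam102b (r 0.86), Col4a1, a basement membrane collagen (r 0.85), Fbln5, an elastic fibre protein (r 0.84), Itgb1, an integrin (r 0.84), and Spaar (r 0.83). In vWAT they were Adamts9, a metalloproteinase (r 0.82), Tle5 (r 0.80), Pdgfrb, a pericyte receptor (r 0.79), Adgrf5 (r 0.77) and Sh3bp5 (r 0.75). Vegfa had r 0.04 (rho 0.0015) with the endothelial mean in scWAT and 0.33 (rho 0.52) in vWAT, and without the 2 libraries farthest from the median r was 0.22 and 0.49. Pairs of endothelial genes ranged from −0.42 to 0.78 in scWAT and from −0.37 to 0.73 in vWAT, with medians of 0.29 and 0.30 over 21 pairs each.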

How the data were processed

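RNA of 60 mouse tissue samples was sequenced as 3′ digital gene expression, which reads the end of each transcript. Per the submitters' processing notes, reads were quantified with Salmon 0.14.2 against mm10. The authors deposited estimated counts per gene, rounded to whole numbers, and beside them log2(CPM + 1) values; the deposited log2 columns were used to check units only. The table holds 0 columns of samples outside this series, and 259 rows with no symbol stayed in the tests under their gene IDs.

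Counts were tested per tissue (20 libraries, 4 groups of 5) with edgeR 4.0.16 in R 4.3.3: filterByExpr, TMM scaling, robust quasi-likelihood fit and Benjamini-Hochberg adjustment over all genes tested, with a call at 0.05. Differences between tissues came from 1 fit of all 60 libraries with the animal as a block. SE is the log2 fold change divided by the square root of F. CPM, counts per 1e+06 counts, used total counts, whereas fold changes used TMM scaling. Alternatives were DESeq2 1.42.0, limma voom 3.58.1, other scalings and filters, library runs, the replicate number as a block and leaving out each library. Tables and figures used Python 3.11.15 with scipy 1.17.1 and matplotlib 3.10.9, and the fits were tested on simulated data. The labels give 5 separate mice per group. A count of 0 allows up to 3 counts, a limit that covers counting error only.

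The 8 members and the gene lists were chosen with earlier results of these data known, and the list counts under other settings were added after the data were seen. Named from a list were up to 3 called genes with the lowest adjusted p, and for likeness the 5 genes with the highest Pearson r. Library runs are blocks of at most 12 consecutive library codes whose boundaries were set, after the data were seen, from reads of organs that were not sampled, and a lymph node library had at least 100 reads of 3 genes.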

Additional observations from a re-analysis of the deposited data

Results flagged for a closer look

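In 96 groups of 5 libraries checked, 4 held a library far from the other 4 by Dixon's test, where chance flags about 1 in 20 groups. In triceps, Cdh5 in trained chow replicate 5 was at 31.8 CPM (23 counts), and its gap to the nearest library took 0.749 of the range of the group, above the critical 0.71. In vWAT, Flt1 was high in replicate 5 of both trained groups, at 85.9 CPM (55 counts, gap 0.818) on chow and 83.3 CPM (49 counts, gap 0.738) on HFD. Also in vWAT, Esam in sedentary chow replicate 3 was at 185 CPM (127 counts, gap 0.714). The running effect on Cdh5 differed between tissues, by 1.04 on the log2 scale between triceps and scWAT and by 0.98 between triceps and vWAT in edgeR's test of the difference (adjusted p of 0.0404 and 0.0494). These calls were lost on total counts (0.0591 and 0.0909) and without the animal block (0.112 and 0.115), and stood in 4 and 3 of the 20 fits that left out 1 animal.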

How the results depend on the processing

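Cdh5 and Flt1 stayed called for running over both diets in triceps in all 20 fits that left out 1 library, at 0.64 to 0.83 and 0.58 to 0.73. For running on HFD in triceps, leaving out 1 library gave 0 to 1 calls. For scWAT on HFD in sedentary mice, the 1 call became 2 on total counts and with the run as a factor. It became 0 within the run of 11 and 0 within the run of 9. Without the lymph node libraries, which left only replicates 1 and 3 of sedentary chow, it also became 0. Leaving out 1 library gave 0 to 1, and Esam stood in 3 of 10 such fits. Total counts gave 1 call for HFD in trained scWAT, and no filter gave 1, Vegfa (edgeR adjusted p = 0.0451), for running on HFD in scWAT. Total counts gave 8 calls between triceps and vWAT and turned the triceps level against scWAT to −0.86 for Pecam1, −0.96 for Flt1 and −0.57 for Vegfa, and against vWAT to −0.94 for Vegfa. Between scWAT and vWAT, no animal block gave 1 call, with Pecam1 lost, and leaving out 1 animal 1 to 3. For both differences in running effect, total counts and no animal block gave 0 calls and leaving out 1 animal 0 to 1. The cause of these changes was not tested. Nothing in the labels pairs the replicate numbers, and same-numbered libraries had r from −0.26 to 0.19 in triceps, −0.19 to 0.56 in scWAT and −0.20 to 0.28 in vWAT; 3, 7 and 4 of 20 correlated best with their own number. In scWAT the numbers go with the library run: replicates 1 and 2 of every group were in the run of 9 and replicates 4 and 5 in the run of 11. There the replicate block moved the genes called on HFD from 449 to 643 in sedentary and from 365 to 552 in trained mice, with 1 and 0 members called as before. With the replicate block, 2 members were called for running over both diets in triceps, Cdh5 at 0.74 (edgeR adjusted p = 0.0119) and Flt1 at 0.66 (adjusted p = 0.0162). Triceps counts of the members were low, which limits what could be detected there.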
